A study of Mus musculus with 22 samples.

Results

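The genes described here are 10 transcription factors of cartilage and of airway mesenchyme: Sox9, Sox5, Sox6, Runx1, Runx2, Runx3, Barx1, Nkx3-2, Osr1 and Osr2. They were chosen by name, as every entry of the count table that carries 1 of these symbols, with the entries of a symbol summed, and they make up 10 of the 26202 symbols in the table. All 10 were present. Levels are given as CPM, the counts of a gene relative to the library total, scaled between libraries by TMM, and each library stood for 1 sample.

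The study asked when the tracheal mesenchyme gathers into the condensations that become cartilage, and what the ligand Wnt5a and the secreted Wnt inhibitor Notum do to that timing. Whole tracheas of mouse embryos were sequenced at E11.5, and sorted tracheal cells at E13.5. The E11.5 controls were Wnt5a f/f (5 libraries) and the E11.5 mutants carried Dermo1Cre with Wnt5a f/f (4 libraries), each sample being a pool of 5 tracheas. Dermo1Cre is active in mesenchyme, and the tracheas were sequenced whole, epithelium included. The E13.5 cells all carried the reporter γSMAeGFP, which marks smooth muscle, and were sorted into epithelium (stained for EpCAM), muscle (GFP) and a fraction negative for both, which the study calls chondroblasts. Tracheas of a litter were pooled for each of these samples as well, 5 at a time by the study's methods. Control epithelium, muscle and chondroblasts had 2 libraries each, and the Notum mutant chondroblasts (Notum 150/150) had 3. For the E13.5 controls, the labels give the first and second sample of each population as Bmp4 f/f and the third as Notum 300/300, without showing which table column is which. The 2 control libraries of each population carry different dates in their column names, called earlier and later here, and all 3 Notum mutant libraries carry the later date. Within a group, libraries are lettered in the order of their columns.

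Sox9 is the master regulator of chondrogenesis: it commits mesenchyme to the cartilage lineage and switches on the collagens and proteoglycans of the matrix. Sox5 and Sox6 lack an activation domain of their own and act beside Sox9 on the same cartilage genes, while the Runx proteins, with their partner Cbfb, act in cartilage maturation, bone and blood. Barx1, Nkx3-2, Osr1 and Osr2 pattern foregut, skeletal and joint mesenchyme, and Osr1 and Osr2 are known in the foregut for their part in the separation and identity of trachea and lung.

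Total counts ran from 6880660 to 21678177 per library, so a floor of 3 counts stood at 0.138 to 0.436 CPM before scaling. The sorted fractions carried the markers of their labels: the summed level of 8 airway epithelial genes was 2896 and 3379 CPM in epithelium and at most 46.2 CPM in the other E13.5 libraries, and that of 8 smooth muscle genes was at least 11080 CPM in muscle and at most 116 CPM elsewhere at E13.5. The double-negative fraction was less sharply marked, with 6 chondroblast genes, Sox9 among them, at 2068 and 2144 CPM in its controls and at 648 and 1522 CPM in muscle. It also held red cell genes, at 69042 CPM in its earlier control library and 6142 to 8807 CPM in the other 4. Neither targeted gene told mutants from controls: Wnt5a stood at 57.7 to 162 CPM in the E11.5 controls and 46.5 to 127 CPM in the mutants, and Notum at 13.8 and 86.1 CPM in control and 13.9 to 35.6 CPM in mutant chondroblasts. The part of each gene that is lost is not given in the sources used here, so these levels check no label.

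**Figure D1:**
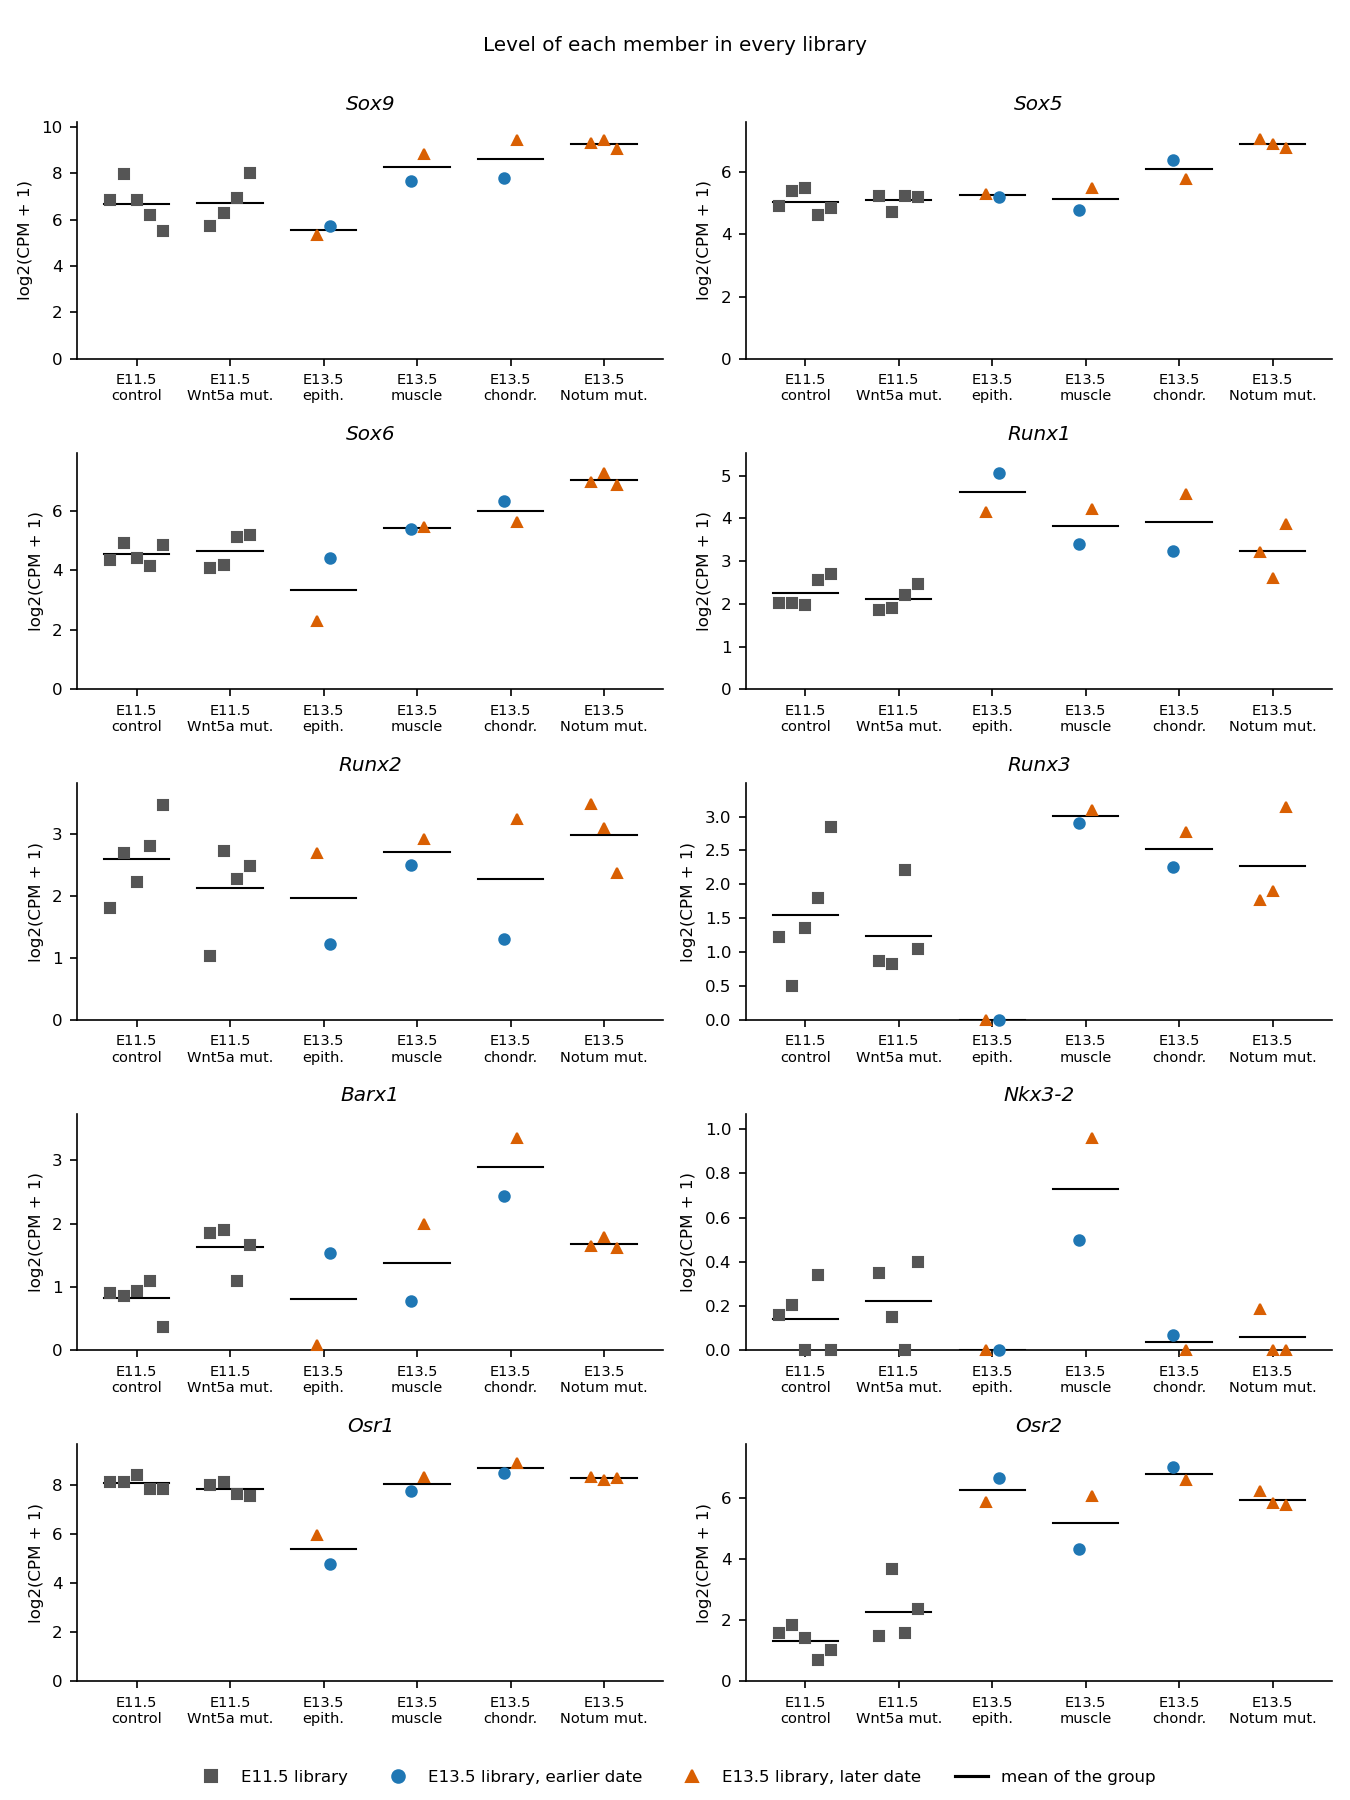
Level of each of the 10 genes in every library, as log2(CPM + 1), by group. Squares are E11.5 libraries, circles and triangles are E13.5 libraries of the earlier and the later date, and lines are the means of the plotted values. Osr2 is at 19.1 CPM or more in all 9 E13.5 libraries and at 11.8 CPM or less in all 9 E11.5 libraries.

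Compared per kilobase of exon, Osr1 was the most abundant of the 10 transcripts in 4 of the 6 groups, at 198.5 CPM per kb in control chondroblasts, and Sox9 came next in that group at 110.05 CPM per kb. In the Notum mutants Sox9 was level with Osr1, at 149.3 and 147.5 CPM per kb. Osr2 followed in control chondroblasts at 30.9 CPM per kb, and the other 7 genes were each below 5 CPM per kb there. Sox5 and Sox6 lay far below Sox9 in every group, at 4.83 and 4.30 CPM per kb in control chondroblasts, and did not differ from each other beyond the spread of their 2 libraries. Barx1 had 4.90 CPM per kb in the same cells, Runx1, Runx3 and Runx2 had 1.298, 0.960 and 0.566 CPM per kb, with overlapping libraries, and Nkx3-2 was the lowest at 0.0149 CPM per kb.

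The first comparison was between the 3 sorted control populations, which shows where in the E13.5 trachea each factor was transcribed. In bulk samples, fewer cells of a type and less RNA per cell cannot be told apart, and this holds for every value given here. Between chondroblasts and epithelium 1 of the 9 genes tested passed an adjusted p under 0.05 (edgeR's quasi-likelihood test, Benjamini-Hochberg over all genes), against 2.74% of all genes, and between epithelium and muscle it was again 1 of 9, against 3.58%. The gene was Osr1 each time. Between chondroblasts and muscle 0 of 9 passed, against 0.132% of all genes, and 0 of 9 had an unadjusted p under 0.05. DESeq2 also called 0 of 9 there. At an unadjusted p under 0.05 and a change over 1.5-fold, 0 of 9 were higher in chondroblasts than in muscle (2.44% of all genes) and 0 of 9 lower (3.03%). Against epithelium 4 of 9, Osr1, Sox9, Sox6 and Runx3, were higher (9.09%) and 0 lower (6.66%), and in epithelium against muscle 0 were higher (7.53%) and 3, Osr1, Sox9 and Runx3, lower (10.1%). Runx3, at 0 in epithelium, entered this fit only through chondroblasts and muscle. In these counts and those of overlap below, it could not come out lower than epithelium.

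The libraries of chondroblasts and muscle did not overlap for 5 genes higher in chondroblasts (21.6% of all genes), Sox5, Sox6, Barx1, Osr1 and Osr2, and for 1 lower, Runx3 (18.7%). At both dates chondroblasts were above muscle for 6 of 9 genes, these 5 and Sox9 (30.3% of all genes), and below it for Runx3 (26.9%). Against epithelium 6 genes were higher without overlap (28.8%) and 0 lower (23.5%), and epithelium was higher than muscle without overlap for 0 genes (24.5%) and lower for 4 (27.4%).

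Sox9 (chr11:112782224-112787760, plus strand, GENCODE M21 on GRCm38) stood at 220 CPM in the earlier and 690 CPM in the later chondroblast library. It was at 206 and 457 CPM in muscle at the same dates, and at 52.3 and 39.6 CPM in epithelium. Both non-epithelial fractions were thus above both epithelial libraries, and the later library was the higher one in each of them. Chondroblasts exceeded muscle by 1.07-fold at the earlier and 1.51-fold at the later date, and epithelium by 4.21-fold and 17.4-fold. The log2 difference between chondroblasts and epithelium was 3.29 ± 0.64 (SE, n = 2 and 2, adjusted p = 0.0573), and that between chondroblasts and muscle was 0.44 ± 0.58 (adjusted p = 1.0000). The first of these passed in 4 of 9 alternatives that kept all libraries and in 0 of 6 that left 1 out. Leaving genes under 10 counts in any library out of the test brought it to an adjusted p of 0.0139.

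Sox5 (chr6:143828425-144781977, minus strand) and Sox6 (chr7:115470872-116038796, minus strand) had several entries each, 4 and 6, and the sums are given here. Runx1, Runx2, Runx3 and Osr2 had 4, 8, 2 and 2 entries and are given as sums too. Sox5 stood at 84.2 and 54.6 CPM in the earlier and later chondroblast library, 26.8 and 43.7 CPM in muscle, and 36.0 and 38.5 CPM in epithelium. Sox6 stood at 79.1 and 48.4 CPM in chondroblasts, 40.7 and 42.8 CPM in muscle, and 20.1 and 3.86 CPM in epithelium. Both were highest in chondroblasts at each date, and for both it was the earlier chondroblast library that was the higher, the reverse of Sox9. The difference from muscle was 0.96 ± 0.40 (SE) on the log2 scale for Sox5 (adjusted p = 0.860) and 0.59 ± 0.75 for Sox6 (adjusted p = 1.0000). That from epithelium was 0.87 ± 0.40 (adjusted p = 0.361) and 2.38 ± 0.78 (adjusted p = 0.202).

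Sequence before start sites is shown for Sox5 and Sox6, which were highest in chondroblasts at each date. So were Sox9, Barx1, Osr1 and Osr2, but the sequences used hold no window for Sox9, Osr1 and Osr2. The windows shown are taken from RefSeq (GRCm38.p6), 250 to 51 bases before a start on the minus strand. The motifs searched, on both strands, were ACAAAG for SOX proteins, CTTTGA for the TCF/LEF factors of canonical Wnt signalling, and TGTGGT for RUNX proteins. They occur in 13.6%, 11.8% and 11.6% of the 32851 windows of that length in the table. ACAAAG, read on the opposite strand, shares 5 letters with CTTTGA, and TGTGGT, read on the opposite strand, can overlap with ACAAAG. The single Sox5 window had no match, nor did the single window of Barx1, which is not printed. All 6 Sox6 windows had at least 1 match, and the 2 with 3 matches each are printed, with matches in capitals. The printed windows lie inside the spans of their genes given above, so they precede internal starts. The Sox6 window at the outer end of the gene, chr7:116038795-116038994, had 1 match.
Sox5, chr6:143947157-143947356: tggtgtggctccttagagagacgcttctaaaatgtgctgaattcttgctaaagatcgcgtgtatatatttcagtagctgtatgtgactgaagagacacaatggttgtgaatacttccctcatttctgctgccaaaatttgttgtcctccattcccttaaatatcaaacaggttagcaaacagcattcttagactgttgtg
Sox6, chr7:115995137-115995336: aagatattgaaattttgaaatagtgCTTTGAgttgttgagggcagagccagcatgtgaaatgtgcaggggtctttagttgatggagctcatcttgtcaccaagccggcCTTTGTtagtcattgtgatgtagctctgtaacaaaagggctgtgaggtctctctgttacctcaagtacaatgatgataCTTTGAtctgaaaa
Sox6, chr7:115824761-115824960: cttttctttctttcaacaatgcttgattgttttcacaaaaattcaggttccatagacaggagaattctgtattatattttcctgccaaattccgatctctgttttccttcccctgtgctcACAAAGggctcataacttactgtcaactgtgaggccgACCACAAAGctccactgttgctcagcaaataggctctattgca
The first printed Sox6 window holds CTTTGA on 2 occasions and the opposite-strand letters of ACAAAG in between. The second holds ACAAAG on 2 occasions, and the later of these overlaps the opposite-strand letters of TGTGGT. A match is a string of letters and not a measured site.

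Runx1 (chr16:92601466-92826149, minus strand), best known as a regulator of blood formation, was at 32.5 and 16.7 CPM in the earlier and later epithelial library. It was at 9.60 and 17.7 CPM in muscle and at 8.43 and 22.8 CPM in chondroblasts. The populations overlapped, and no difference passed (chondroblasts against epithelium -0.68 ± 0.79 on the log2 scale, SE, adjusted p = 0.738). The largest of its 4 entries held 16.4% to 16.5% of its counts in muscle, 74.2% to 80.3% in chondroblasts and 69.3% to 72.9% in epithelium. With that entry alone, chondroblasts were 2.39 above muscle on the log2 scale (0.18 with the sum). Epithelium was then 2.96 above muscle (0.86 with the sum). Neither passed (adjusted p = 0.851 and 0.212). In the later epithelial library 5 blood and macrophage genes (Ptprc, Csf1r, C1qa, Spi1 and Cd68) summed to 0.262 CPM, with Ptprc, Csf1r and Spi1 at 0, while Runx1 was at 16.7 CPM. In the earlier one they summed to 138 CPM, with Csf1r at 91.3 CPM, and their part in the 32.5 CPM of Runx1 was not tested.

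Runx2 (chr17:44495987-44814797, minus strand), the factor of osteoblasts and of hypertrophic cartilage, was low throughout: 1.48 and 8.52 CPM in the earlier and later chondroblast library, 4.68 and 6.56 CPM in muscle, and 1.34 and 5.49 CPM in epithelium. The later library was the higher in each population, and the populations overlapped. Of 8 late genes known to lie downstream of Runx2, Ibsp, Col10a1, Mmp13, Ihh and Bglap were at 0 in both control chondroblast libraries, and Sp7, a factor of the osteoblast lineage, was at 13.9 and 3.59 CPM. Runx3 (chr4:135120652-135177990, plus strand), which shares roles with Runx2 in chondrocyte maturation, was the only 1 of the 9 tested genes at 0 in both epithelial libraries. It stood at 3.78 and 5.83 CPM in chondroblasts and at 6.52 and 7.57 CPM in muscle, and only these levels brought it through the filter on low values. Taking 3 counts in 1 epithelial library as the floor, its mean level was at least 24.5-fold higher in chondroblasts and at least 35.9-fold higher in muscle, with adjusted p = 0.0844 and 0.0650.

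The 3 Runx genes share more than their protein family. Around their distal start sites, RefSeq (GRCm38.p6) holds 1 identical stretch of 18 bases, which contains the RUNX letters TGTGGT on 2 occasions in opposite-strand form. Only 4 of the 32851 windows of 300 bases in the table hold it, those of Runx1, Runx2, Runx3 and Gm16225, a gene that starts beside Runx3 on the other strand. Windows of that length with any 2 such matches make up 1.81% of the table. The 30 bases around it are shown on the strand of each gene, with ACCACA, the opposite-strand form, in capitals.
Runx1, chr16:92826025-92826054, minus strand: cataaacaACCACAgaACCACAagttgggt
Runx2, chr17:44814583-44814612, minus strand: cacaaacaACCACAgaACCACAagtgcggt
Runx3, chr4:135120503-135120532, plus strand: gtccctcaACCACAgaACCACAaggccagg
The stretch lies past the start of Runx1 and Runx2 and before the start of Runx3. The count table does not say which transcript its entries stand for, so the levels given cannot be split by start site.

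Barx1 (chr13:48662998-48666507, plus strand), a homeobox factor of the stomach and oesophageal mesenchyme, stood at 4.44 and 9.27 CPM in the earlier and later chondroblast library. It was at 0.711 and 2.97 CPM in muscle and at 1.92 and 0.0654 CPM in epithelium. Only its level in chondroblasts brought it through the filter on low values. Chondroblasts were above the other populations at both dates, with 6.25-fold and 3.12-fold over muscle, but the difference did not pass (1.88 ± 1.77 on the log2 scale, SE, adjusted p = 1.0000). Nkx3-2 (chr5:41761483-41764501, minus strand), a homeobox repressor that acts with Sox9 in the axial skeleton, had at most 15 counts in any of the 18 libraries and 0 in 8 of them. It passed the filter on low values in none of the comparisons. Its 2 highest levels, 0.415 and 0.947 CPM (7 and 15 counts), were both in muscle, and chondroblasts had 1 count in the earlier and 0 in the later control library.

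Osr1 (chr12:9570116-9581500, plus strand), an odd-skipped zinc finger factor of foregut and lateral plate mesenchyme, was the only tested member that passed between sorted populations. In this main test Sox9 differed from epithelium by as much but did not pass. Its log2 differences were 3.29 for chondroblasts against epithelium (adjusted p = 0.0573) and -2.84 for epithelium against muscle (adjusted p = 0.0696). Runx3, at 0 in epithelium, did not pass either (adjusted p = 0.0844 and 0.0650). Osr1 stood at 349 and 471 CPM in the earlier and later chondroblast library, 214 and 312 CPM in muscle, and 26.2 and 61.1 CPM in epithelium. All 4 libraries of the non-epithelial fractions lay above both epithelial libraries. Osr1 was 3.21 ± 0.45 higher on the log2 scale in chondroblasts than in epithelium (SE, adjusted p = 0.0227) and 2.59 ± 0.44 higher in muscle than in epithelium (adjusted p = 0.0328). Chondroblasts exceeded muscle by 1.63-fold and 1.51-fold at the 2 dates, which did not pass (0.63 ± 0.41, adjusted p = 1.0000). The call against epithelium was lost without chondroblast control A (adjusted p = 0.0911) or B (0.125). That between muscle and epithelium was lost without muscle control A (0.0913) or B (0.144) and without chondroblast control A (0.0768) or B (0.0727).

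Osr2 (chr15:35296098-35303305, plus strand), the second odd-skipped factor, known from palate, tooth and joint development, was at 128 and 96.3 CPM in the earlier and later chondroblast library. Unlike Osr1 it was also high in epithelium, at 99.2 and 58.0 CPM, and it was at 19.1 and 66.1 CPM in muscle. Chondroblasts were above muscle by 6.67-fold at the earlier and 1.46-fold at the later date (1.38 ± 0.60 on the log2 scale, SE, adjusted p = 0.875). Without the filter on low values this difference passed, with an adjusted p of 0.0160.

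**Figure D2:**
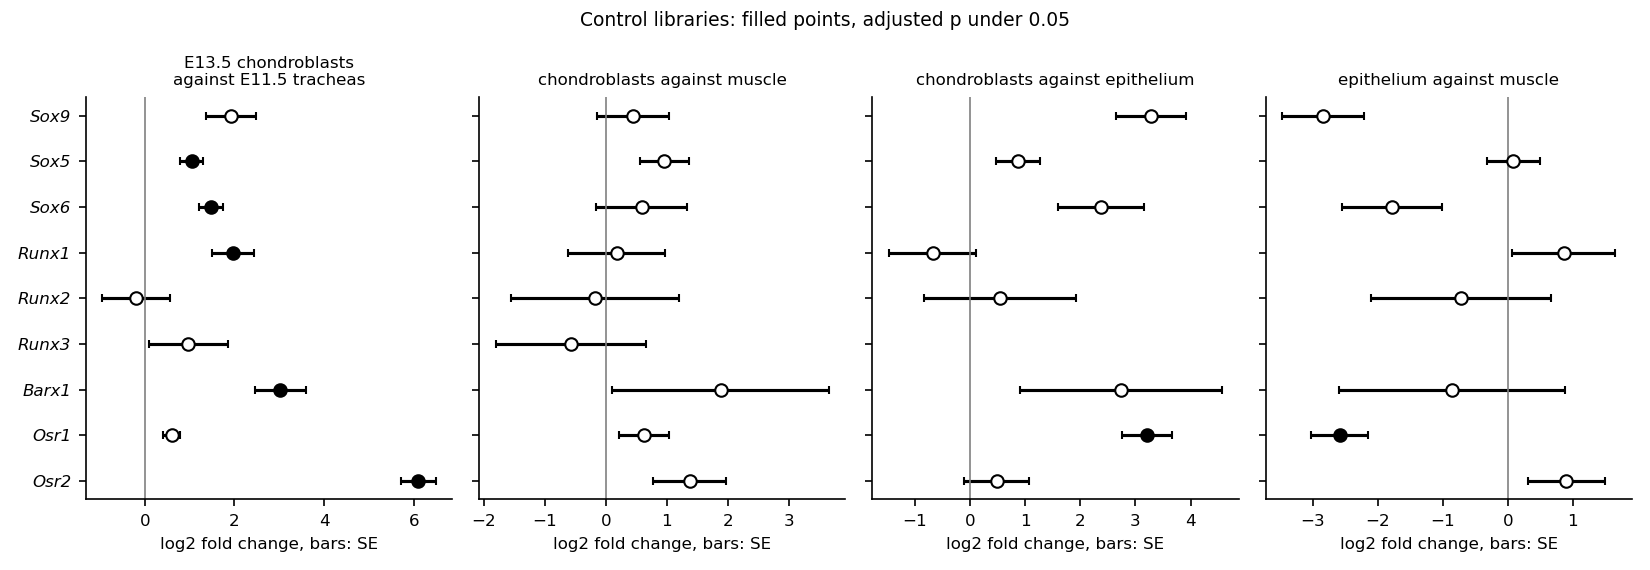
Log2 fold change (x axis) of the 9 tested genes between control groups, with bars for the standard error and filled points for an adjusted p under 0.05. Runx3 is left out of the panels with epithelium, where it was at 0. Osr1 is filled in both panels with epithelium, and 5 genes are filled between E13.5 chondroblasts and E11.5 tracheas.

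The second comparison was over stage, between the sorted control chondroblasts (E13.5) and the whole E11.5 control tracheas. Stage, sorting and the cell makeup of the sample cannot be told apart in it, nor can the Bmp4 f/f, Notum 300/300 and Wnt5a f/f backgrounds. Of the 9 genes tested 5 rose, Osr2, Sox6, Barx1, Runx1 and Sox5, and 0 fell, where 12.5% of all genes changed in either direction. Of the other 4, Sox9 and Osr1 had an unadjusted p under 0.05, Runx3 was 0.97 ± 0.88 higher and Runx2 0.19 ± 0.75 lower on the log2 scale (SE). At an unadjusted p under 0.05 and a change over 1.5-fold 7 of 9 were higher (12.8% of all genes) and 0 lower (13.3%), and 6 of 9 were higher without overlap (17.7%) and 0 lower (18%). The median difference of the 9 genes was 1.47, against -0.05 over all genes tested.

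Osr2 showed the widest gap. The E11.5 controls stood at 1.98, 2.55, 1.66, 0.602 and 1.01 CPM, against 128 and 96.3 CPM in the chondroblasts, a log2 difference of 6.10 ± 0.39 (SE, n = 2 and 5, adjusted p = 1.37e-04). The groups were far apart, and epithelium and muscle at E13.5 also lay above every E11.5 library. Osr2 passed under every alternative in which it was tested, with a highest adjusted p of 0.00137. Osr1, in contrast, was already at 275, 272, 332, 225 and 225 CPM in the E11.5 controls and was 0.60 ± 0.19 higher in the chondroblasts (adjusted p = 0.0691). Barx1 was at 0.873, 0.817, 0.909, 1.14 and 0.289 CPM at E11.5 and rose by 3.02 ± 0.57 on the log2 scale (adjusted p = 0.0124). Here too it passed the filter on low values only through the chondroblasts.

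Of the SOX factors, Sox6 rose by 1.47 ± 0.27 (SE, adjusted p = 0.0114) and Sox5 by 1.04 ± 0.26 (adjusted p = 0.0361) on the log2 scale. Their E11.5 control levels were 16.7 to 28.9 CPM for Sox6 and 23.5 to 43.7 CPM for Sox5, below both chondroblast libraries. Sox9 was at 114, 250, 113, 73.5 and 45.1 CPM in the E11.5 controls. Control B at 250 CPM was above the earlier chondroblast library at 220 CPM, so the groups overlapped, and the difference of 1.93 ± 0.56 did not pass (adjusted p = 0.0551). Without that control the adjusted p was 0.0205, and without chondroblast control A it was 0.0243. Sox9 also passed in 4 of 8 alternatives that kept all libraries. Genes of the early response to tissue dissociation (Fos, Fosb, Jun, Junb, Egr1, Atf3 and Ier2), 7 in all, summed to 235 to 2628 CPM in the E11.5 controls and to 4415 and 2953 CPM in the chondroblasts. All 7 were higher in the chondroblasts, with a median log2 difference of 2.20 and 0 called, and their part in the Sox9 difference was not tested. Runx1 was at 2.94 to 5.50 CPM at E11.5 and rose by 1.97 ± 0.47 on the log2 scale (adjusted p = 0.0293). The blood and macrophage genes summed to 37.1 to 70.2 CPM in the E11.5 controls and to 87.2 and 127 CPM in the chondroblasts, and their part in the Runx1 difference was not tested.

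Of the 5 calls 4 rested on single libraries. Without chondroblast control A, Sox5 (adjusted p = 0.170) and Sox6 (0.0523) were lost, and without chondroblast control B, Barx1 (0.0702) and Runx1 (0.244). Runx1 was also lost without E11.5 control A (0.0749), C (0.0655) or D (0.0643), and Sox5 without A (0.0820), D (0.0781) or E (0.0555). With only the largest entry of each symbol in place of the sum, Sox5 (0.0921), Sox6 (0.174) and Runx1 (0.126) were lost.

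Among the genes around the members, 12 of 15 tested cartilage genes that Sox9, Sox5 and Sox6 activate rose and 0 fell, with a median log2 difference of 2.85. Matn4, a matrix adaptor protein, rose by 5.52 ± 0.35 (SE), Col11a2, a fibril collagen, by 5.45 ± 0.38, and Col2a1, the main collagen of cartilage, by 2.73 ± 0.40. Of 14 partners of the members 3 rose and 4 fell. Wwp2, a ubiquitin ligase that binds Sox9, rose by 3.16 ± 0.23, while Sox11, a SOXC factor of progenitor cells, fell by 2.43, and Sox8, the close relative of Sox9, fell by 1.91. Of 27 tested transcription factors of cartilage or airway mesenchyme 4 rose, Prrx1, Nfatc1, Hoxa5 and Gli3, and Tbx18 was among those that fell. Of the 3 late genes downstream of Runx2 that were tested 0 passed, and 2 had an unadjusted p under 0.05.

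The third comparison asked whether loss of Wnt5a from the mesenchyme changed these factors at E11.5. None of the 9 genes tested passed (0 of 9, edgeR's quasi-likelihood test, against 0.0136% of all genes, which is 2 genes), and DESeq2 also called 0 of 9. At an unadjusted p under 0.05 and a change over 1.5-fold, 2 of 9 were higher in the mutants, Barx1 and Osr2, where 1.19% of all genes were, and 0 of 9 lower, where 2.53% were. Over all genes 672 had an unadjusted p under 0.05, and every adjusted p of the 9 genes was at least 0.9996. The median log2 difference of the 9 genes was 9.28e-04, against -0.02 over all genes tested.

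Barx1 was the 1 gene whose groups did not overlap, where 0.825% of all genes were higher and 0.436% lower without overlap. It passed the filter on low values only through the mutants, since most controls were under 1 CPM. Its place among the genes tested thus depended on the group where it was high. It stood at 2.62, 2.75, 1.14 and 2.18 CPM in mutants A to D and at 0.289 to 1.14 CPM in the controls, so that mutant C and control D were almost level. The difference was 1.36 ± 0.42 on the log2 scale (SE, unadjusted p = 0.00797). Of the oesophagus and stomach markers (Trp63, Krt5, Krt15 and Nkx6-1), the summed level was 30.8, 18.8, 2.28 and 16.3 CPM in the same 4 mutants and 4.77 to 14.9 CPM in the controls. Trp63, a factor of basal cells, stood at 15.0, 10.2, 1.25 and 10.8 CPM in the mutants, and Pax9, a foregut factor, at 12.5, 10.7, 0.171 and 8.56 CPM. Mutant C was thus the lowest of the 4 mutants for Barx1, for these markers and for Pax9. Control B, at 14.9 CPM of the markers, had Barx1 at 0.817 CPM. The same markers summed to 0.981 and 94.5 CPM in the sorted E13.5 tracheal epithelium, so they do not single out oesophagus. The part of adjoining oesophagus or of airway epithelium in the Barx1 difference was not tested.

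**Figure D3:**
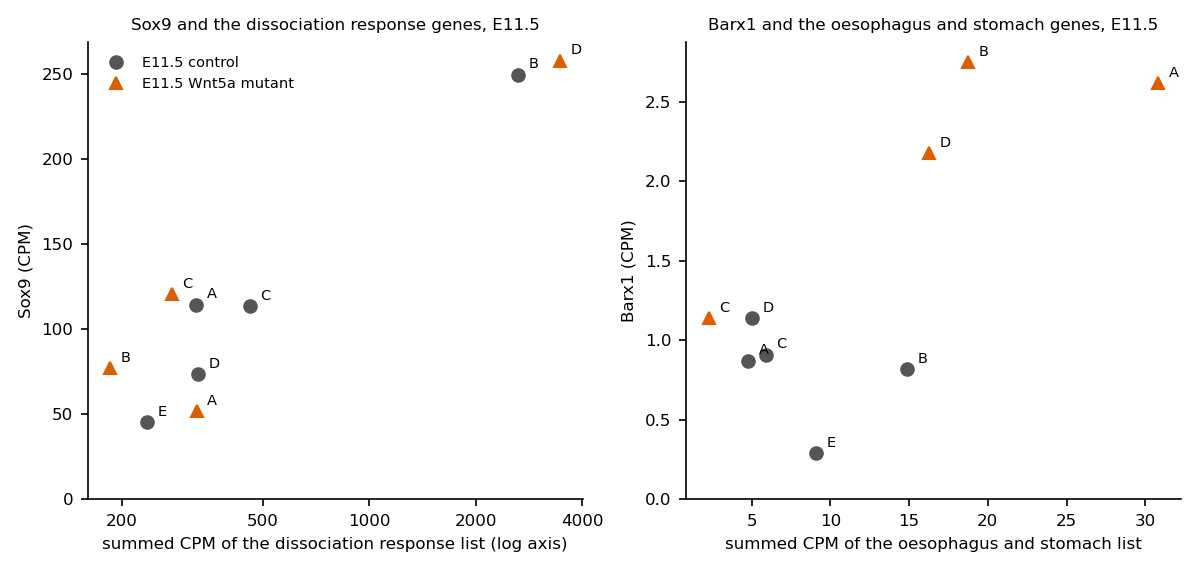
Sox9 (left, CPM) against the summed CPM of 7 dissociation response genes on a log axis, and Barx1 (right, CPM) against the summed CPM of 4 oesophagus and stomach genes, in the 9 E11.5 libraries, lettered within their group. Control B and mutant D stand apart on the left with 250 and 258 CPM of Sox9, and mutants A, B and D lie above the other 6 libraries for Barx1 on the right.

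Osr2 stood at 1.80, 11.8, 1.99 and 4.09 CPM in mutants A to D, against 0.602 to 2.55 CPM in the controls. The groups overlapped, and mutant B was well above the rest. The difference was 1.61 ± 0.60 on the log2 scale (SE, unadjusted p = 0.0206), and without mutant B it was 0.71. Osr1 was at 252, 272, 197 and 182 CPM in the mutants, with mutants C and D below all controls, a difference of -0.27 ± 0.16 (unadjusted p = 0.126).

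Sox9 was at 51.8, 77.2, 121 and 258 CPM in the mutants and at 45.1 to 250 CPM in the controls, so each group spanned nearly the same range. The difference was 0.08 ± 0.50 on the log2 scale (SE, unadjusted p = 0.880). Control B and mutant D, whose column names share a number, were the highest of their groups for Sox9, at 250 and 258 CPM. The same 2 libraries had the 7 dissociation response genes at 2628 and 3458 CPM in sum, against 185 to 460 CPM in the other 7, and the part of that response in the Sox9 level was not tested. Without both libraries the difference in Sox9 was -0.08. With the shared column number as a block, which uses 4 pairs, it was -0.24 ± 0.16 (unadjusted p = 0.180), with mutant over control at 0.675, 1.03, 1.064 and 0.705-fold in the pairs of controls A to D.

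Sox5 and Sox6 were close to equal between the groups, with differences of 9.28e-04 ± 0.20 and 0.13 ± 0.29 on the log2 scale (SE, unadjusted p = 0.996 and 0.659). Mutant levels of Sox5, 25.4 to 37.1 CPM, lay inside the range of the controls. Those of Sox6, 15.7 to 34.98 CPM, overlapped it and passed it at both ends. Runx1, Runx2 and Runx3 were lower in the mutants by means of 3.37 against 3.89 CPM, 3.79 against 5.56 CPM and 1.57 against 2.40 CPM, with overlapping groups and unadjusted p of 0.487, 0.276 and 0.429. Nkx3-2 had 0 to 6 counts in the mutants and 0 to 4 in the controls.

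**Figure D4:**
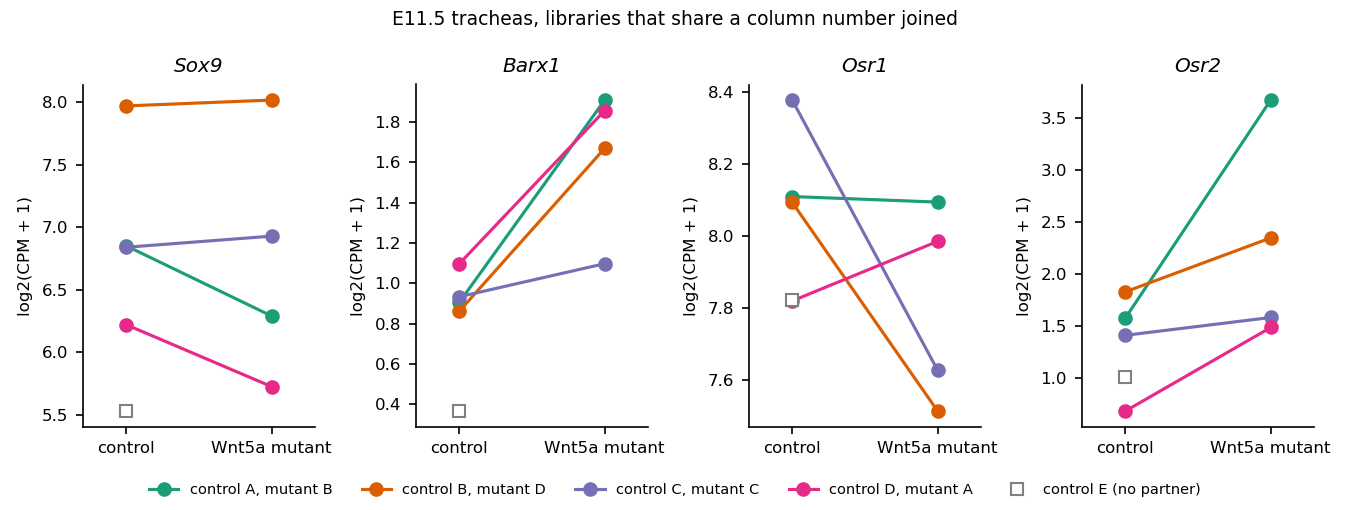
Sox9, Barx1, Osr1 and Osr2 in E11.5 controls and Wnt5a mutants, as log2(CPM + 1) on axes that do not start at 0, with lines joining libraries that share a column number and an open square for control E, which has no partner. Barx1 and Osr2 are higher in the mutant in 4 of 4 pairs, Sox9 in 2 of 4.

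With the block by column number, Barx1 was 1.15 ± 0.43 and Osr2 1.26 ± 0.45 higher in the mutants on the log2 scale (SE, unadjusted p = 0.0263 and 0.0217, adjusted p = 0.957 for both), and 0 of 9 genes passed. Barx1 was 3.15, 2.67, 1.25 and 2.30-fold higher in the mutant in the pairs of controls A to D, and Osr2 5.96, 1.60, 1.20 and 2.99-fold. Among the other genes, 0 of 13 tested cartilage genes passed, with 10 higher and 3 lower and a median log2 difference of 0.17. Col9a1 had the smallest p among them (0.67 ± 0.25, unadjusted p = 0.0195). Of 14 partners 0 passed, and Sox8 had the smallest p (-0.79 ± 0.35, unadjusted p = 0.0437). Of 29 tested transcription factors of cartilage or airway mesenchyme 0 passed, with Hoxc5 (1.35 ± 0.45), Tbx18 (-1.02 ± 0.37) and Pax9 (2.38 ± 0.88) having the smallest p. The 2 genes called among all genes were Myog and Myod1, factors of skeletal muscle. The 5 skeletal muscle markers that include them summed to 204 to 324 CPM in the mutants and 39.9 to 166 CPM in the controls.

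The fourth comparison set Notum mutant against control chondroblasts at E13.5, to ask how the same factors differed where the Wnt inhibitor was lost. By the labels described above, the control libraries cannot all come from the Notum line, and the columns do not show which do. Loss of Notum and mouse background therefore cannot be told apart in this comparison. Mutants B and C share a number in their column names, whose meaning is not given, and were fitted as separate samples. Of the 9 genes tested 0 passed with both control libraries (edgeR's quasi-likelihood test, against 0% of all genes, the smallest adjusted p over all genes being 0.0540). Of 14120 genes 1762 had an unadjusted p under 0.05, and DESeq2 called 526 genes (3.73%), Sox6, Sox5 and Osr2 among them. At an unadjusted p under 0.05 and a change over 1.5-fold, Sox5 and Sox6 were higher, where 5.51% of all genes were, and Barx1 and Osr2 lower, where 2.9% were. The same 2 SOX genes were higher without overlap of the groups, where 17.2% of all genes were, and Barx1, Osr1 and Osr2 lower without overlap, where 16.4% were.

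Sox6 stood at 123, 151 and 115 CPM in mutants A to C and at 79.1 and 48.4 CPM in the earlier and later control. Sox5 stood at 133, 119 and 108 CPM in the mutants and at 84.2 and 54.6 CPM in the controls. All 3 mutants were above both controls for each gene, and the higher control was the earlier one, which does not share the date of the mutants. The difference was 1.04 ± 0.24 on the log2 scale for Sox6 (SE, n = 3 and 2, unadjusted p = 0.00406, adjusted p = 0.256) and 0.81 ± 0.20 for Sox5 (unadjusted p = 0.00687, adjusted p = 0.270). DESeq2 gave adjusted p of 0.00428 and 0.0195.

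Sox9 did not follow them. It was at 632, 694 and 527 CPM in the mutants and at 220 and 690 CPM in the controls, so that 2 mutants lay between the controls and mutant B was level with the later one, and the difference was 0.44 ± 0.45 (SE, adjusted p = 0.715). The outcome for Sox9 turned on the control library used. Without the later one, chondroblast control B, Sox9 was 1.496 higher on the log2 scale and passed (adjusted p = 0.0231, where 0.737% of all genes passed), and without the earlier one, chondroblast control A, it was 0.17 lower. The 7 dissociation response genes summed to 3645, 2923 and 1832 CPM in mutants A to C and to 4415 and 2953 CPM in the earlier and later control. Of the 7 genes 5 were lower and 2 higher in the mutants, with a median log2 difference of -0.36 and 0 called, and their part in the Sox9 level was not tested.

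Osr2 stood at 74.0, 55.8 and 54.1 CPM in the mutants and at 128 and 96.3 CPM in the controls, a difference of -0.86 ± 0.19 on the log2 scale (SE, unadjusted p = 0.00392, adjusted p = 0.256, DESeq2 adjusted p = 0.00831). Osr1 stood at 317, 287 and 310 CPM, against 349 and 471 CPM (-0.42 ± 0.15, adjusted p = 0.360). Barx1 stood at 2.13, 2.45 and 2.07 CPM, against 4.44 and 9.27 CPM (-1.62 ± 0.56, adjusted p = 0.338). For all 3 the mutants lay close together and below both controls.

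Of the Runx genes, Runx1 was at 8.26, 5.11 and 13.7 CPM in the mutants and Runx3 at 2.41, 2.75 and 7.80 CPM, each overlapping its controls, with adjusted p of 0.602 and 0.951. Runx2 was at 10.2, 7.61 and 4.19 CPM, also overlapping (0.56 ± 0.81 on the log2 scale, SE, adjusted p = 0.804). The blood and macrophage genes summed to 194, 173 and 268 CPM in mutants A to C and to 127 and 87.2 CPM in the controls, so they were higher in every mutant, and their part in the Runx1 level was not tested. Nkx3-2 had 3 counts in mutant A and 0 in mutants B and C.

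**Figure D5:**
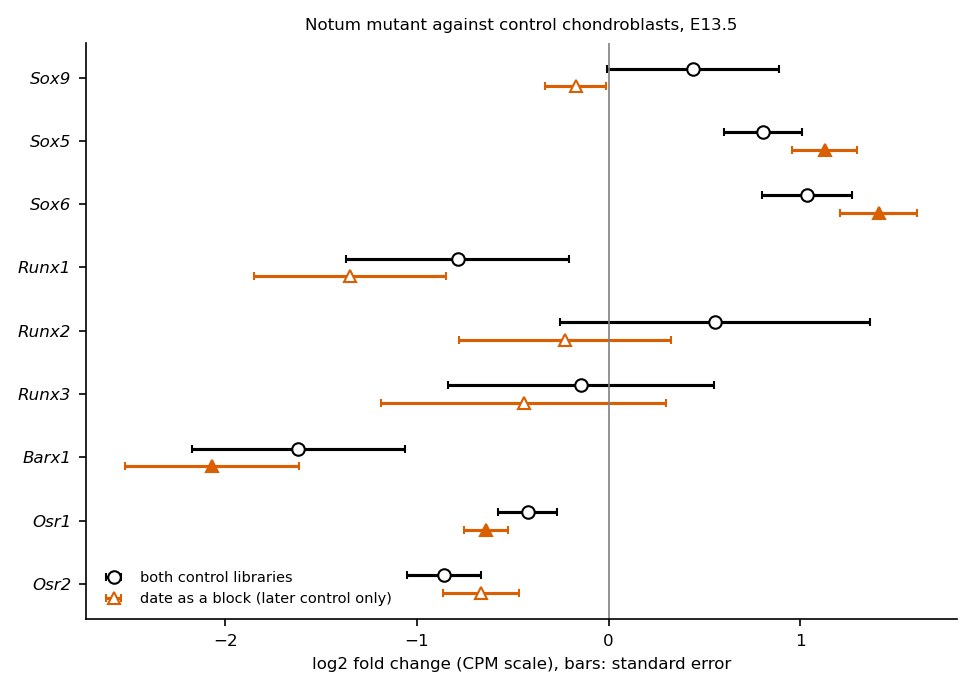
Log2 fold change of the 9 tested genes in Notum mutant against control chondroblasts, with bars for the standard error, using both control libraries (circles) or with the date as a block (triangles), where only the later control is compared with the mutants. Filled points have an adjusted p under 0.05: with the block these are Sox5, Sox6, Barx1 and Osr1, and Sox9 lies on the other side of 0.

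All mutants carry the later date, so the date as a block leaves the later control as the sole control library. The spread is then taken from the 3 mutants alone and holds none between controls. Whether that control is of the Notum line is not shown either. In that fit 4 of 9 genes passed, against 18.4% of all genes. Sox6 was 1.41 ± 0.20 higher (SE, adjusted p = 0.0101) and Sox5 1.13 ± 0.17 higher (adjusted p = 0.0115), while Osr1 was 0.64 ± 0.11 lower (adjusted p = 0.0164) and Barx1 2.07 ± 0.45 lower (adjusted p = 0.0273) on the log2 scale. Osr2 was 0.66 ± 0.20 lower and did not pass (adjusted p = 0.0598), and Sox9 was 0.17 ± 0.16 lower. The count of genes called was 2604 in this fit and 2540 when chondroblast control A was left out, against 0 with both controls and 106 without chondroblast control B. Against the later control alone, the mutants ranged from 2.38-fold to 3.12-fold for Sox6, 1.98-fold to 2.44-fold for Sox5, 0.763-fold to 1.00-fold for Sox9, 0.609-fold to 0.672-fold for Osr1 and 0.224-fold to 0.265-fold for Barx1. All mutants were above that 1 control for 41.5% of all genes and below it for 34.7%. Red cell genes separated the 2 controls, at 69042 CPM in the earlier and 6142 CPM in the later library, against 6543 to 8807 CPM in the mutants, and their part in the difference between the fits was not tested.

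Genes around the members gave 0 calls in this comparison with both controls. Of 14 partners 11 were higher and 3 lower, with a median log2 difference of 0.78 against 0.02 over all genes tested. Sox11 had the smallest p of them, at 180, 266 and 266 CPM in the mutants and 47.9 and 41.0 CPM in the controls (2.43 ± 0.22, SE, adjusted p = 0.0567). Sox4, its SOXC relative, was 0.87 ± 0.19 higher and Tle3, a corepressor used by Runx and TCF proteins, 1.83 ± 0.45 higher. Among 26 tested transcription factors of cartilage or airway mesenchyme, 20 were higher and 6 lower. The smallest p were those of Msx2 (2.05 ± 0.15, adjusted p = 0.0540), at 102, 90.8 and 99.98 CPM in the mutants and 25.7 and 21.8 CPM in the controls, of its relative Msx1 (2.15 ± 0.31, adjusted p = 0.144) and of Smad9 (1.00 ± 0.23, adjusted p = 0.256). Of 14 tested cartilage genes 10 were higher and 4 lower, with Fgfr3 (0.84 ± 0.14), Matn4 (0.89 ± 0.18) and Col9a2 (0.31 ± 0.08) having the smallest p. Of 3 tested late genes downstream of Runx2, Sp7 was 1.93 ± 0.55 higher (adjusted p = 0.296), at 29.98, 39.7 and 29.8 CPM against 13.9 and 3.59 CPM.

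The Wnt5a and Notum comparisons use different control libraries. Side by side, Barx1 was 1.36 ± 0.42 higher in the Wnt5a mutants and 1.62 ± 0.56 lower in the Notum mutants on the log2 scale (SE), and Osr2 was 1.61 ± 0.60 higher and 0.86 ± 0.19 lower. Sox5 and Sox6 differed by 9.28e-04 and 0.13 in the Wnt5a mutants and by 0.81 and 1.04 in the Notum mutants. None of these values passed in the main test of its comparison, and Barx1 entered the Wnt5a test only through the mutants. These differences between the comparisons were not tested, since stage, sorting and the background of the controls differ as well.

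The transcripts whose levels ran most alike across the 18 libraries were found among 11661 genes with a mean of at least 5 CPM, by Pearson's r of log2(CPM + 1), as a description of libraries that differ in stage, sorting and date. For Sox9 they were Scube1 (0.979), Sned1 (0.960) and 5930403L14Rik (0.956), and for Sox6 they were Igsf3 (0.952), Vcan, a proteoglycan of condensing mesenchyme (0.948), and Spsb4 (0.945). For Sox5 they were Mapre2 (0.916), Bcan (0.905) and Ugdh (0.896). Osr1 ran with Gng2 (0.944), Cmtm3 (0.944) and Bnc2 (0.932), and Osr2 with Tapbp (0.942), Fam234a (0.939) and Lmcd1 (0.937). Barx1 ran with C1qtnf4 (0.921), B4galt3 (0.887) and Hp (0.842). Runx1 and Runx2 had weaker likeness than these, with S100a11 (0.880) for Runx1 and Dcaf10 (0.736) for Runx2.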

How the data were processed

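The authors deposited expected counts, estimated counts that need not be whole, in 1 table of 47248 entries and 22 columns, unnormalized and with replicates apart. The submitters' processing notes name Partek, limma and mm10 without a role, the study's methods name DESeq2, and the aligner and counter are not given in the sources used here. Columns were matched to groups by name. 18 were used and 4 were not. A pair of columns whose names carry irregular hyphens or minus signs, 1 epithelial and 1 Notum mutant, was assigned from the rest of the name. The labels list 3 samples of each E13.5 control population and 4 Notum mutants, of which 2 each and 3 were mapped, and the columns do not show which litter a library came from, so p-values measure the spread between these libraries. No libraries of a group agreed within sampling noise (chi-square of at least 19.9 per gene).

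Entries were summed per symbol and rounded. Sums were taken because the entries are not tied to transcripts. A gene entered a test where any fitted group had over 50% of its libraries at 1 CPM or higher. Tests used edgeR 4.0.16 (R 4.3.3), glmQLFit and glmQLFTest with TMM, 2-sided, Benjamini-Hochberg over all genes tested. The standard error is the log2 fold change divided by the square root of F. DESeq2 1.42.0, limma 3.58.1 (voom), other size factors, filters, fits and libraries were alternatives. The main E11.5 test was unpaired. Libraries from E11.5 that share a column number had positive correlations of their deviations (r = 0.209, 0.618, 0.128 and 0.128 over 14663 genes). Libraries with different numbers ranged from -0.371 (control B, mutant A) to 0.256 (control E, mutant A). The numbers were taken as pairs in 1 alternative, from the columns and not the labels. Libraries of the same E13.5 date did not deviate together in every pair of populations (0.121, 0.112 and -0.00488). SMART-Seq v4 adds no molecular identifiers, so floors cover counting error only.

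Named are all 10 members, genes of 4 lists (partners, other transcription factors, cartilage genes activated by Sox9, Sox5 and Sox6, late genes downstream of Runx2) that passed or had the smallest p, markers that check a label, and the genes most correlated with a member. A few further genes and markers were named after their values were seen (Csf1r, Fos, Trp63, Pax9). The members and lists were chosen with earlier results of these data known. Gene positions and exon lengths are from GENCODE M21, whose GRCm38 is the build that mm10 names, and sequences are from RefSeq, GRCm38.p6, which matched 7 of the 10 members. A few genes that these rules would name are not reported here.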

Additional observations from a re-analysis of the deposited data

Results flagged for a closer look

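In 20 groups of 4 or 5 E11.5 libraries, 2 members had a library far from the others of its group, by Dixon's test. Chance flags about 1 in 20 groups. Sox5 stood at 25.4 CPM in Wnt5a mutant B, the lowest of the 4 mutants, against 36.1 to 37.1 CPM in the other 3. Runx3 stood at 3.65 CPM in Wnt5a mutant C, the highest of the 4, against 0.770 to 1.063 CPM in the other 3.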

How the results depend on the processing

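Members tested were 9 in the main fits and 10 without a filter. At 10 counts in every library they were 6 in the Wnt5a comparison and at E13.5 against E11.5, and 7 between sorted controls. Barx1 and Osr2 were among those not tested at 10 counts at E13.5 against E11.5. With the largest entry per symbol 8 were tested in the Wnt5a comparison and between sorted controls. The counts of members called moved as follows. In the Notum comparison, 0 of 9 became 3 with DESeq2 and 4 with the replicate block by date, and 0 to 4 when a library was left out. Between chondroblasts and muscle, 0 became 1 without a filter. Between chondroblasts and epithelium, 1 became 4 with DESeq2, without a filter and with all libraries in 1 fit, 2 at 10 counts in every library, and 0 to 2 when a library was left out. Between epithelium and muscle, 1 became 3 with DESeq2, 4 without a filter and with all libraries in 1 fit, 2 at 10 counts and with voom, and 0 to 2 when a library was left out. At E13.5 against E11.5, 5 became 7 with DESeq2, 6 without a filter and with all libraries in 1 fit, 4 at 10 counts, 2 with the largest entry per symbol and 3 to 6 when a library was left out. In the Wnt5a comparison it was 0 under all alternatives run, the replicate block by column number included, which called 1 gene in all. The genes called over the whole table ranged from 0 to 40 (Wnt5a, 2 in the main test), 0 to 2604 (Notum, 0), 2 to 532 (chondroblasts against muscle, 18), 20 to 2961 (against epithelium, 375), 162 to 3576 (epithelium against muscle, 490) and 825 to 3493 (E13.5 against E11.5, 1835), the upper ends with DESeq2, the date block or all libraries in 1 fit.

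Of 821 member values under alternatives 42 changed direction, and 0 of these were called in the main test. In the Wnt5a comparison, log2 differences turned to -0.045 (voom), -0.24 (replicate block) and -0.082 (without control B and mutant D) for Sox9, to -0.0014 (10 counts), -0.0045 (voom) and -0.0079 (replicate block) for Sox5, and to 0.044 (replicate block) for Runx3. In the Notum comparison they turned to -0.17 for Sox9 and -0.23 for Runx2 with the replicate block by date and to 0.44 for Runx3 with the largest entry, and between chondroblasts and muscle to -0.076 for Runx1 with voom. Leaving out a library moved Sox9 from -0.50 to 0.50, Sox5 from -0.10 to 0.13, Sox6 from -0.042 to 0.30 and Runx3 from -1.45 to 0.12 in the Wnt5a comparison. It moved Sox9 from -0.17 to 1.496, Runx1 from -1.34 to 0.11, Runx2 from -0.22 to 2.31 and Runx3 from -0.89 to 0.20 in the Notum comparison. Between chondroblasts and muscle it moved Sox9 from -0.63 to 1.13, Runx1 from -0.73 to 0.72 and Runx2 from -1.96 to 0.58, between chondroblasts and epithelium Runx2 from -1.24 to 1.87, between epithelium and muscle Sox5 from -0.21 to 0.48 and Barx1 from -4.67 to 0.50, and at E13.5 against E11.5 Runx2 from -1.94 to 0.56. The cause was not tested. Where a library was left out of a group of 2, the lone library is assumed to vary like the others. At 0 to 3 counts per library, Nkx3-2 in chondroblasts is at the limit of depth.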
